A study of Mus musculus with 12 samples.

Results

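The genes described here are markers of cellular senescence and targets of the tumour suppressor p53, followed in the mouse heart across ageing and long-term spermidine in drinking water. They were chosen by name, with earlier results of these data known: Cdkn1a, Cdkn2a, Cdkn2b, Cdkn2c, Trp53, Mdm2, Gadd45a, Ccng1, Ccng2 and Sesn1. All probes carrying one of these symbols in the platform annotation were used, whatever their values. This gave 19 of the 25697 probes, for 9 of the 10 genes. No probe used here was named Trp53, and the p53 transcript itself was not analysed here. RNA from whole heart tissue of C57Bl/6 mice was hybridised to Illumina bead arrays, 1 array per sample and 12 in all. The 4 young hearts came from untreated mice aged 6 months, and the 4 aged hearts from untreated mice aged 30 to 32 months. The remaining 4 came from mice of the same 30 to 32 months that had drunk water with 3 mM spermidine, a natural polyamine, from 4 months of age onwards. All mice had free access to standard chow. Neither their sex nor the hour of collection is stated in the sources used here. The sample titles carry separate numbers, read here as animals. Since nothing else says that each sample is another animal, a p-value covers the spread of these samples, which may be partly technical.

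Senescent cells leave the cell cycle for good while staying metabolically active. Their arrest is held by inhibitors of cyclin-dependent kinases (CDKs), the enzymes that drive the cycle by inactivating the RB protein. Cdkn1a encodes p21, the main arrest gene switched on by p53. The Cdkn2 genes encode the INK4 inhibitors, which block the CDKs that work with D-type cyclins. Mdm2 marks p53 for destruction and is itself a p53 target. Gadd45a, Sesn1 and Ccng1 are p53 targets of the stress response. Ccng2 encodes cyclin G2, an unconventional cyclin that is found in resting rather than dividing cells and is switched on by FoxO factors, which insulin signalling restrains. Heart muscle cells of adult mice rarely divide.

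The start regions of Cdkn1a and Ccng2 are shown because these genes stand for the p53 and the FoxO branch, and because Ccng2 held the one difference that passed the test below. Both are the 250 bases before an annotated start, from RefSeq on assembly GRCm38.p6, plus strand. Cdkn1a has 2 annotated start windows there, and the one with the match below is shown. In the Cdkn1a promoter, chr17:29090729-29090978, the capitals mark a match to the p53 response element, and in the Ccng2 promoter, chr5:93267323-93267572, they mark CAAAACAA, a sequence known from insulin-regulated genes bound by FoxO.
Cdkn1a: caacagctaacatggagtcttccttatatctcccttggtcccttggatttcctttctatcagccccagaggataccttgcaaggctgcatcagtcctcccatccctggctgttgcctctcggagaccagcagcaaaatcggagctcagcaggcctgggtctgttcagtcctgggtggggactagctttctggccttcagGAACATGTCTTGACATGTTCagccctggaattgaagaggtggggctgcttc
Ccng2: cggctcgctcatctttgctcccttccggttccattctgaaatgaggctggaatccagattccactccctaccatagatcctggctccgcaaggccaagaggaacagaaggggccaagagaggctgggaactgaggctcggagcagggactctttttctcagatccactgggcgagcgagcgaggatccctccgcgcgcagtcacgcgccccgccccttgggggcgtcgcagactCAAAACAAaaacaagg

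The search covered both strands of 32851 RefSeq windows, each reaching from 250 bases before to 50 bases after a start, of which 14 belonged to the 10 genes. The motifs were picked after the expression values were known, and a match describes letters, not binding. The full p53 element, a pair of adjoining decamers searched with at most 1 mismatch, matched 29 windows (0.0883%), among them the Ccng1 window and 1 of the 2 Cdkn1a windows. The Ccng1 match, AGACCTGCCCGGGCAAGCCT, lay 195 to 176 bases before the start in the minus-strand window chr11:40755237-40755536. CAAAACAA matched 2.51% of all windows and, among the 10 genes, the Ccng2 window. A second FoxO sequence, GTAAACA, matched 3.65% of all windows, including that of Mdm2 and 1 of the 2 of Sesn1.

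Levels are given per probe as log2(intensity + 16) after quantile normalization, and a difference between group means on that scale is called a log2 difference. Such a difference understates the change of dim probes, and levels of different probes are not comparable. A background limit, set from the spread of the values below 0, lay at 4.87 to 4.99 on this scale, and 11689 to 12337 probes per array were above it. Within groups, the arrays correlated at 0.980 to 0.995 (young), 0.969 to 0.987 (aged) and 0.984 to 0.988 (treated) over the 10311 probes above the limit on every array. Some arrays stood apart. Young 4 and treated 3 carried airway transcripts: Scgb1a1, a secretory protein of airway cells, read 12.89 and 11.47 there and 3.42 to 4.56 on the other 10 arrays. Aged 1 had little of the atrial transcript Sln: it read 9.75 there and 12.99 to 13.36 in aged 2, 3 and 4. The summed intensity of 7 macrophage markers was 1595 to 1717 in young, 2272 to 2711 in aged and 1979 to 2928 in treated hearts. The cardiomyocyte markers, 6 of 7 with a probe and all above the limit on all 12 arrays, summed to 75262 to 80592 over the 12 arrays. In bulk tissue, fewer cells of a type and less RNA per cell cannot be told apart.

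Most of the senescence and p53 target genes were present in the heart, and few differed between groups. Of the 19 probes, 14 lay above the background limit on all 12 arrays, and these covered Cdkn1a, Cdkn2c, Mdm2, Gadd45a, Ccng1 and Sesn1. The Ccng2 probe was above it on 11 arrays and the Cdkn2b probe on 7. Both Cdkn2a probes and 1 of the 3 Mdm2 probes lay below it on every array. All 19 passed the filter on dim probes. In aged against young hearts, 1 of the 19 passed an adjusted p of 0.05 (limma, Benjamini-Hochberg over 20573 probes), that of Ccng2, which was lower in aged hearts. Over all tested probes, 164 (0.797%) passed in that comparison, 0.54% higher and 0.258% lower.

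With spermidine, no probe of these genes passed the threshold. In treated against aged hearts 0 of 19 were called by limma, against 1 probe (0.00486%) of all tested. With an unadjusted p under 0.05 there were 3 of 19, where 9.45% of all tested probes met that rule. In treated against young hearts 0 of 19 were called, against 0.16% of all tested (0.151% higher and 0.00972% lower). There 6 probes had an unadjusted p under 0.05, against 7.49% of all. These 6 belonged to 4 genes, since all 3 Cdkn1a probes were among them. For aged against young the unadjusted count was 5 of 19, against 14.3%, and these 5 belonged to 4 genes. Probes of 1 gene on the same arrays are not separate evidence, so the member counts are a description. The comparisons share arrays: the aged arrays enter the first and the second, the young arrays the first and the third.

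The groups' 4 arrays did not overlap for 3 of the 19 probes, of 2 genes, in aged against young hearts. That pattern was shown by 8.07% of all tested probes. They did not overlap for 2, of 2 genes, in treated against aged hearts (3.27% of all) and for 5, of 4 genes, in treated against young hearts (5.51% of all). Over the 16 probes above the limit on some array, the median log2 difference was 0.03 in aged against young, 0.15 in treated against aged and 0.18 in treated against young hearts. The medians over all tested probes were -0.01, 0.00 and -0.01. That wider set also held 6059 probes above the limit on 0 arrays, so its medians are not a like-for-like reference.

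**Figure D1:**
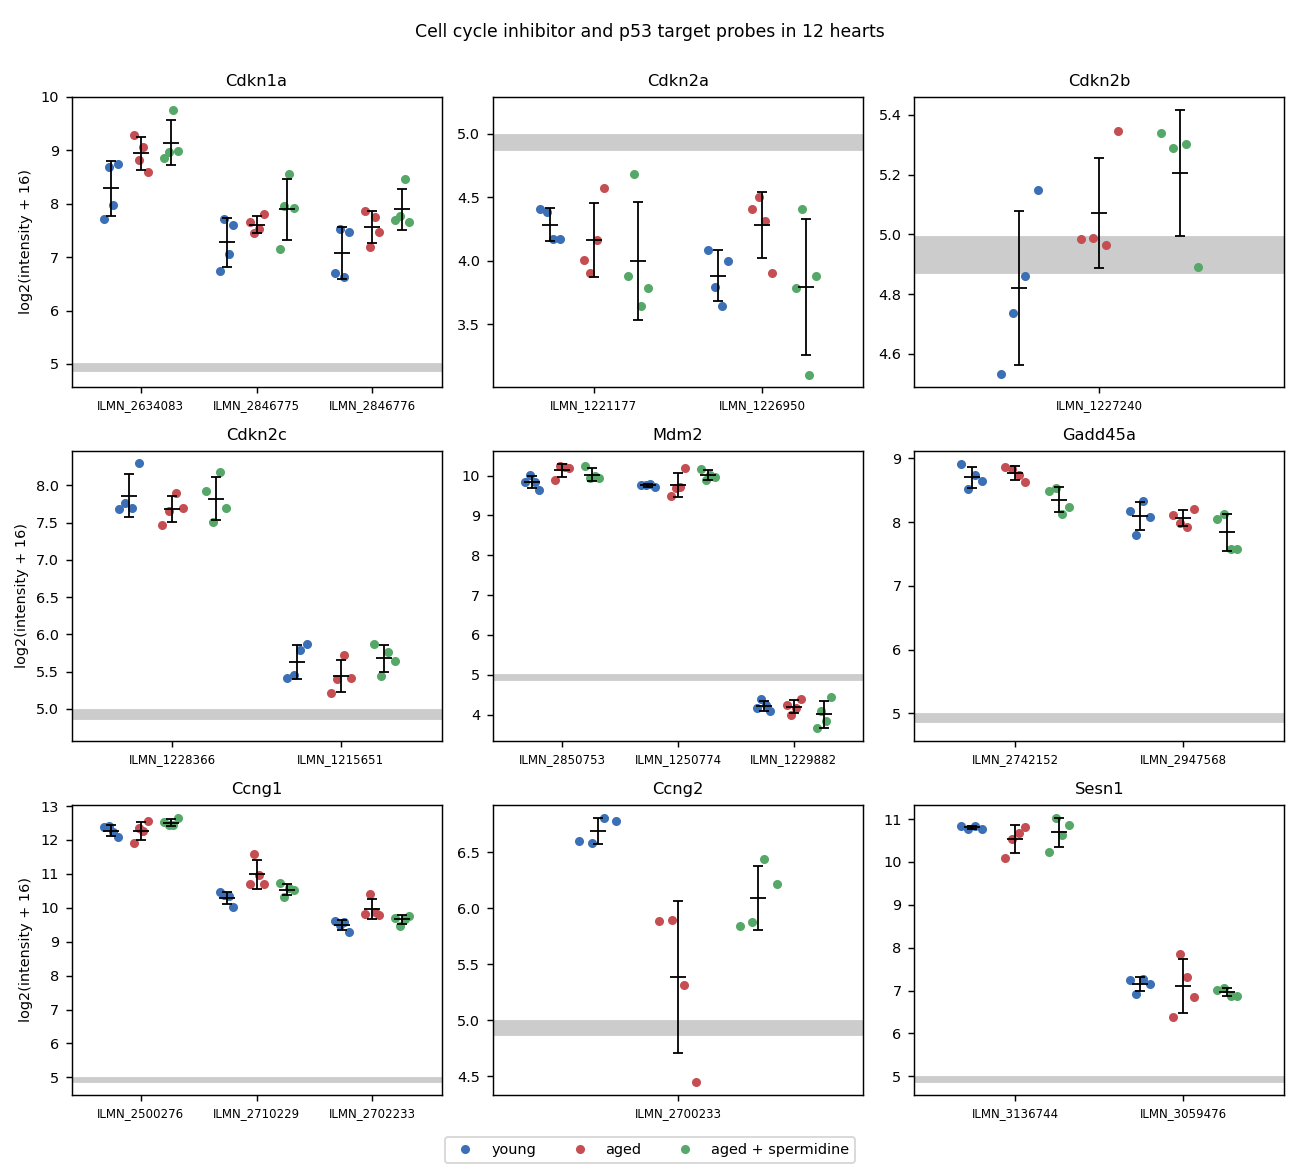
Level of each of the 19 probes on each of the 12 arrays, on the log2(intensity + 16) scale, with 1 panel per gene and its own axis range. Points are arrays, bars are the group mean and SD (4 arrays), and the grey band is the range of the background limit, 4.87 to 4.99: both Cdkn2a probes lie below it, and the Ccng2 points of the young group lie above all aged points.

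**Figure D2:**
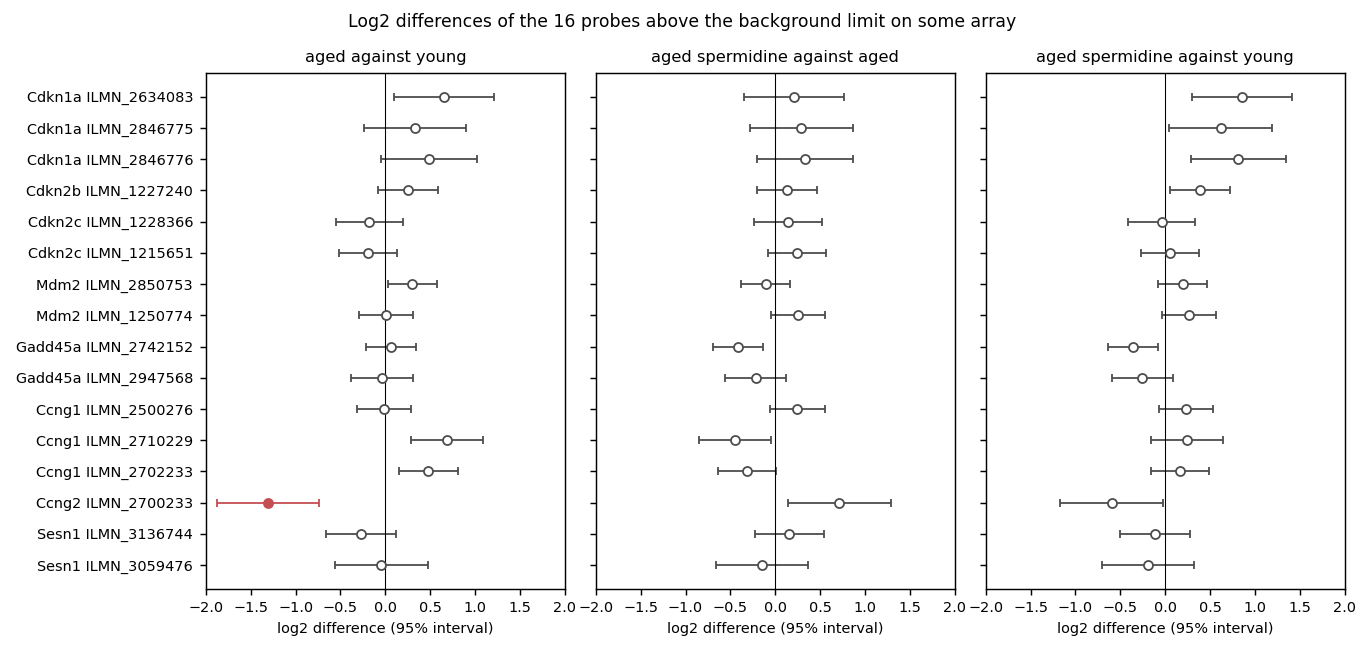
Log2 difference of group means with its 95% interval from limma for the 16 probes above the background limit on some array, in each of the 3 comparisons. The filled point, Ccng2 in aged against young hearts at -1.31, is the one that passed an adjusted p of 0.05.

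Cdkn1a, the p21 gene on chromosome 17, had higher mean levels in both old groups than in young hearts at each of its 3 probes, but not past the threshold. The brightest probe, ILMN_2634083, read 7.72, 8.69, 7.99 and 8.75 in young hearts. Aged hearts gave 9.29, 8.82, 9.07 and 8.59, and treated hearts 8.86, 8.97, 9.76 and 8.99. The young hearts fell into a lower and a higher pair, and the higher pair lay within the aged range, so that young and aged hearts overlapped. All treated hearts lay above all young hearts. The log2 difference was 0.66 ± 0.26 (SE; 95% interval 0.10 to 1.21) in aged against young hearts, with an adjusted p of 0.261. In treated against young hearts it was 0.86 ± 0.26, adjusted p = 0.369.

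The other Cdkn1a probes gave smaller or like values. ILMN_2846775 had log2 differences of 0.33 in aged against young hearts (adjusted p = 0.611) and 0.62 in treated against young hearts (adjusted p = 0.630). ILMN_2846776 had 0.49 (adjusted p = 0.392) and 0.81 (adjusted p = 0.369), and in the second case the groups did not overlap. Across the 12 arrays the 3 probes moved together, with Pearson r of 0.83 to 0.95 as a description of probes on the same arrays.

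Treated and aged hearts did not differ past the threshold in Cdkn1a: the log2 differences of treated against aged hearts were 0.20, 0.29 and 0.33. Their adjusted p-values were 0.832, 0.756 and 0.692. The interval of the brightest probe ran from -0.35 to 0.76 and held both falls and rises. The aged-against-young difference had a wide interval too, so whether treated hearts returned towards the young level cannot be decided. Treated 3, an array with airway transcripts, was the highest of all arrays at each Cdkn1a probe. Without it, the difference at the brightest probe was -0.0017. The part of those transcripts in the Cdkn1a values was not tested.

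The INK4 genes on chromosome 4 showed no difference past the threshold. Cdkn2a, the locus of p16INK4a and p19ARF and the most widely used senescence marker, was below background on all 12 arrays at both probes, ILMN_1221177 and ILMN_1226950. Its background-subtracted intensities ran from -8 to 9, against limits of 13.2 to 15.8. No fold is therefore given, and neither probe gave a detectable signal at this sensitivity in young, aged or treated hearts. How well these probes report the transcript was not tested. Both probes are annotated to a single accession, and which of the locus's products they report is not stated there.

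Cdkn2b, the neighbouring p15 gene, was at the edge of detection. Its probe read 4.53, 4.74, 4.86 and 5.15 in young hearts, 4.98, 4.99, 4.97 and 5.35 in aged hearts, and 5.34, 5.29, 5.30 and 4.89 in treated hearts. It was above background on 1 young, 3 aged and 3 treated arrays, and all groups overlapped. The log2 difference was 0.25 ± 0.16 in aged against young hearts (adjusted p = 0.489) and 0.39 ± 0.16 in treated against young hearts (adjusted p = 0.581).

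Cdkn2c, the p18 gene, was expressed on all arrays and did not differ past the threshold. Its brighter probe, ILMN_1228366, read 7.68 to 8.29 in young, 7.47 to 7.90 in aged and 7.5 to 8.17 in treated hearts. The aged-against-young log2 difference was -0.18 ± 0.17 (95% interval -0.55 to 0.20), and at ILMN_1215651 it was -0.19 ± 0.15. Of the related inhibitors outside the 10 genes, Cdkn2d gave -0.22 (adjusted p = 0.431) and Cdkn1c -0.16 (adjusted p = 0.704) in the same comparison.

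Mdm2 on chromosome 10, the ubiquitin ligase that limits p53 and is induced by it, was well above background at 2 of 3 probes. At ILMN_2850753 the young hearts read 9.84, 10.003, 9.85 and 9.63, the aged hearts 9.89, 10.24, 10.21 and 10.18, and the treated hearts 10.25, 9.94, 9.98 and 9.93. Aged hearts other than aged 1 lay above all young hearts. The log2 difference was 0.30 ± 0.13, with an adjusted p of 0.302. ILMN_1250774 read 9.70 to 9.79 in young hearts, 9.48 to 10.18 in aged hearts and 9.90 to 10.17 in treated hearts, and its aged-against-young difference was 0.01. There the treated hearts lay above all young hearts by a log2 difference of 0.26 ± 0.14 (adjusted p = 0.755). The probes thus gave unlike values for the same gene, and they correlated at r = 0.39 (rho = 0.24) over the 12 arrays. The third probe, ILMN_1229882, was below background throughout. The probe used for Mdm4, a relative of Mdm2 that also binds p53, was above background on 1 array.

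Gadd45a on chromosome 6, a growth arrest gene induced by DNA damage, overlapped between young and aged hearts, and at 1 probe all treated values lay below all aged values, short of the threshold. ILMN_2742152 read 8.92, 8.53, 8.73 and 8.65 in young hearts and 8.87, 8.84, 8.74 and 8.63 in aged hearts. Treated hearts read 8.50, 8.54, 8.13 and 8.24. The lowest aged heart thus lay above the highest treated heart. The treated-against-aged log2 difference was -0.42 ± 0.13 (95% interval -0.70 to -0.14), which ranked 274 by p among the 20573 probes and had an adjusted p of 0.453. At ILMN_2947568 the difference was -0.22 ± 0.16 (adjusted p = 0.682), and the groups overlapped. The intervals of aged against young were -0.21 to 0.34 and -0.38 to 0.30. Of its relatives, Gadd45b had a log2 difference of -0.65 in aged against young hearts (adjusted p = 0.169) and 0.33 in treated against aged hearts (adjusted p = 0.637).

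Sesn1 on chromosome 10 encodes sestrin 1, which holds back the growth kinase complex mTORC1 under stress. Its bright probe, ILMN_3136744, read 10.83, 10.78, 10.84 and 10.78 in young hearts, a narrow range. Aged hearts read 10.09, 10.53, 10.68 and 10.83, and treated hearts 10.24, 11.02, 10.63 and 10.87. The SDs at this probe were 0.03 in young, 0.32 in aged and 0.34 in treated hearts, and the groups overlapped. The log2 differences were -0.27 ± 0.18 in aged against young hearts (adjusted p = 0.518) and 0.16 ± 0.18 in treated against aged hearts (adjusted p = 0.811). ILMN_3059476 ranged from 6.37 in aged 1 to 7.85 in aged 2, and gave differences of -0.04 and -0.15. Its SDs were 0.16 in young, 0.63 in aged and 0.09 in treated hearts. The probe used for the relative Sesn2 was above background on 6 arrays and that for Sesn3 on 0.

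Ccng1 on chromosome 11, the p53 target cyclin G1 that guides a phosphatase to Mdm2, gave unlike values at its 3 probes. ILMN_2710229 read 10.45, 10.37, 10.34 and 10.04 in young hearts and 10.69, 11.58, 10.97 and 10.69 in aged hearts. Treated hearts read 10.73, 10.32, 10.57 and 10.53. All aged hearts lay above all young hearts, and the treated hearts overlapped both. The log2 difference of aged against young was 0.69 ± 0.19 (95% interval 0.29 to 1.09, a 1.61-fold ratio), with an adjusted p of 0.112. Treated against aged it was -0.45 ± 0.19 (adjusted p = 0.502), and treated 1 overlapped the aged range.

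ILMN_2702233 gave the same order. It read 9.61, 9.49, 9.59 and 9.27 in young hearts, 9.82, 10.42, 9.87 and 9.78 in aged hearts, and 9.70, 9.46, 9.68 and 9.77 in treated hearts. The aged hearts lay above all young and all treated hearts. The log2 differences were 0.48 ± 0.15 (adjusted p = 0.164) and -0.32 ± 0.15 (adjusted p = 0.535). Neither probe passed the threshold.

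The brightest Ccng1 probe, ILMN_2500276, read 12.38, 12.41, 12.24 and 12.08 in young hearts and 11.90, 12.35, 12.25 and 12.55 in aged hearts. Treated hearts read 12.53, 12.43, 12.43 and 12.65. Young and aged hearts overlapped widely, with a log2 difference of -0.02 ± 0.14, while the treated hearts lay above all young hearts by 0.23 ± 0.14 (adjusted p = 0.818). Over the 12 arrays it correlated at r = 0.09 with each of the other probes, which correlated with each other at r = 0.97. Within arrays, ILMN_2710229 minus ILMN_2500276 averaged -1.98 ± 0.08 (SD) in young, -1.28 ± 0.45 in aged and -1.97 ± 0.17 in treated hearts. An exact two-sided permutation test of aged against young gave p = 0.0286, the smallest that 4 against 4 arrays allow. It is quoted as the lowest p of the 30 probe-pair relations computed, and no other relation reached it. Benjamini-Hochberg adjustment over the 30 gave 0.429. With 4 arrays per group, a lone relation cannot pass the threshold after this adjustment, whatever its values. The adjusted value therefore does not decide whether the relation of these probes differed between aged and young hearts. Which transcripts of Ccng1 each probe binds was not analysed here.

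**Figure D3:**
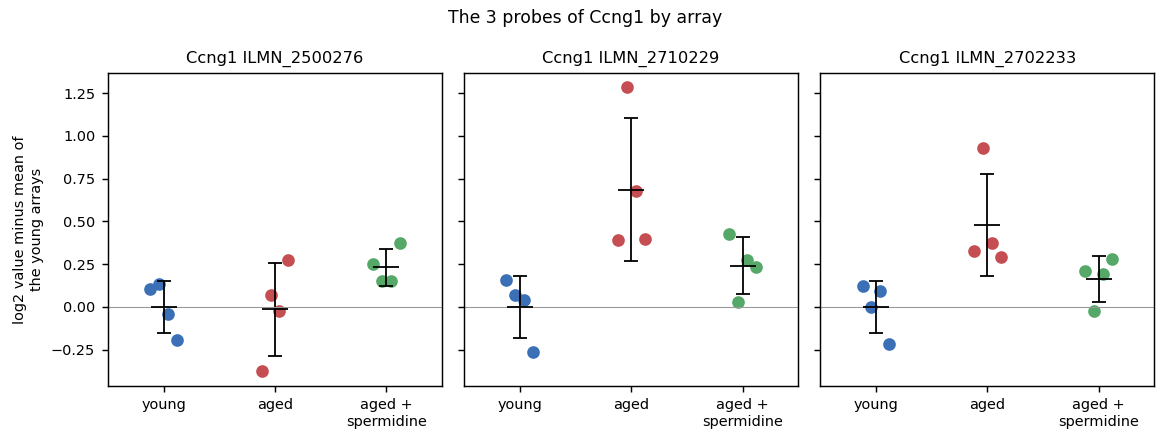
The 3 Ccng1 probes on each array, as the log2 value minus the mean of the 4 young arrays, with group means and SDs. At ILMN_2710229 and ILMN_2702233 all aged points lie above all young points (mean differences 0.69 and 0.48), and at ILMN_2500276 the young and aged points overlap (-0.02).

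Ccng2 on chromosome 5, the cyclin G2 gene, was lower in aged hearts. Its probe, ILMN_2700233, read 6.60, 6.58, 6.80 and 6.78 in young hearts, 5.88, 5.89, 5.31 and 4.45 in aged hearts, and 5.85, 5.88, 6.44 and 6.21 in treated hearts. The deposited intensities behind these were 82, 85, 106 and 92 in young hearts, 41, 46, 23 and 6 in aged hearts, and 41, 39, 77 and 50 in treated hearts. Every aged heart lay below every young heart, aged 4 lay below the background limit, and the treated hearts lay below all young hearts and overlapped the upper aged values.

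The aged-against-young log2 difference of Ccng2 was -1.31 ± 0.27 (95% interval -1.88 to -0.73), a 2.47-fold lower level on this scale. Its adjusted p was 0.0421, and it ranked 127 by p among all 20573 probes. Treated against aged, the log2 difference was 0.71 ± 0.27 (95% interval 0.14 to 1.28), with an adjusted p of 0.469 and groups that overlapped. Treated hearts lay below all young hearts by a log2 difference of -0.60 ± 0.27, with an adjusted p of 0.647. The lower level in aged hearts thus passed the test, while a higher level with spermidine than without did not.

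The Ccng2 call was narrow, since the probe is dim and its adjusted p lay close to the threshold. It passed in 4 of the 12 fits that each left out 1 array, with adjusted p from 0.0191 to 0.126 and log2 differences from -1.48 to -0.99. The size of the difference moved with the offset, from -0.83 with offset 50 to -1.59 with values under 16 set to 16. Leaving out young 1, 2, 3 or 4 gave 0.112, 0.10, 0.126 and 0.0898, and without aged 3 it was 0.0877. Leaving out treated 1, 2 or 4 gave 0.0510, 0.0524 and 0.0540. Without both arrays that carried airway transcripts the log2 difference was -1.28 and the adjusted p 0.106. The macrophage marker sum was higher in all aged than in all young hearts, with 7 of the 9 listed markers fitted, all 7 above background on all 12 arrays and 0 called. Its part in the Ccng2 difference was not tested.

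**Figure D4:**
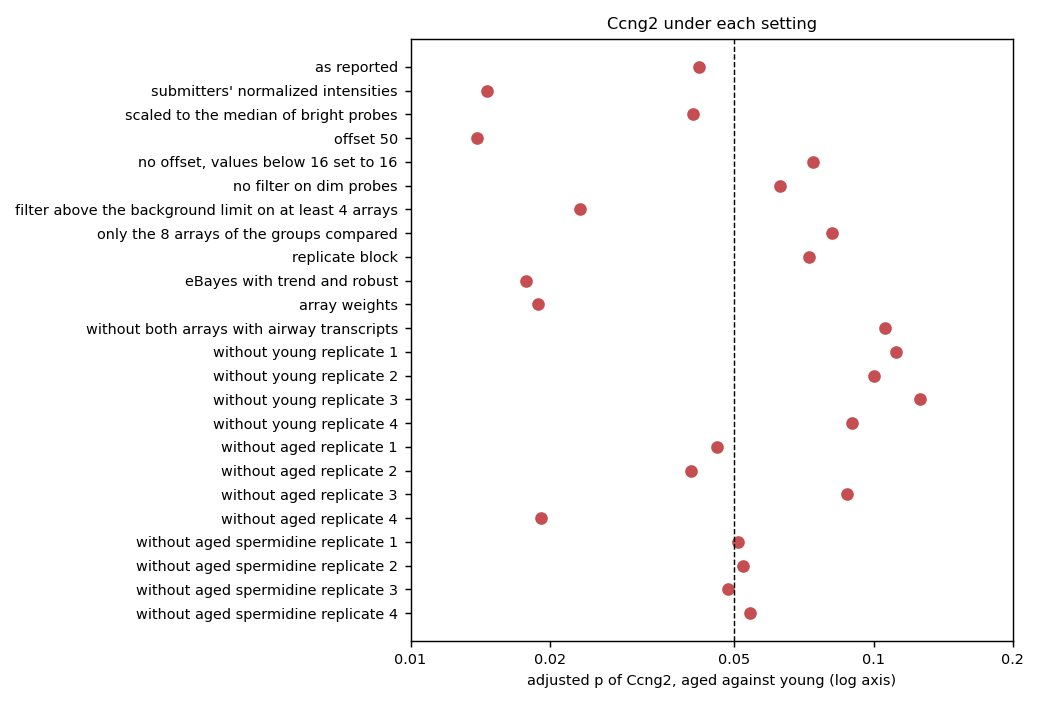
Adjusted p of Ccng2 in aged against young hearts (log axis) under the reported setting and 23 alternatives, with a dashed line at 0.05. The values run from 0.0139 to 0.126, and 10 of the 23 alternatives lie below the line.

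The wider p53 pathway showed no call, under a rule that few of all named genes passed. The lists below hold 1 probe per gene. They were drawn from textbook roles, but with earlier results of these data known, so their counts beside all named genes are a description. Of 35 other p53 target genes, 31 were tested, 18 of them above background on all 12 arrays. In aged against young hearts 0 rose and 0 fell, where 78 rose and 31 fell among all 13708 named genes. An unadjusted p under 0.05 was met by 7 (22.6%), against 14.2% of all named genes. Their median log2 difference was 0.02, with 16 of 31 higher, against a median of -0.01 and 47.6% higher over all 13708 named genes. Fas, the death receptor, read 8.42 to 8.53 in young, 8.50 to 9.27 in aged and 8.64 to 9.14 in treated hearts. Its aged-against-young log2 difference was 0.43 ± 0.16 (adjusted p = 0.227). Gtse1, which restrains p53 in dividing cells, gave 0.65 (adjusted p = 0.191), but its probe was above background on 3 arrays. Pidd1 gave -0.60 (adjusted p = 0.180), and its probe was above background on 1 array. With spermidine, 0 of 31 were called, as were 0 of all 13708 named genes, and 2 (6.45%) had an unadjusted p under 0.05, against 8.64% of all. Tap1, the peptide transporter of antigen presentation, had a log2 difference of -1.11 ± 0.45 (adjusted p = 0.501). Its aged hearts were spread widely, at 6.14, 6.39, 7.92 and 8.21. Treated hearts read 5.96, 7.12, 5.50 and 5.64, and the groups overlapped. In aged against young hearts Tap1 gave 1.20 ± 0.45 (adjusted p = 0.238). Ercc5, a DNA repair nuclease, gave 0.29 ± 0.13 (adjusted p = 0.507). The 23 p53 regulators and DNA damage kinases gave 0 calls among 20 tested in both comparisons, and 0 of them had an unadjusted p under 0.05. Chek2, a checkpoint kinase, gave 0.35 (adjusted p = 0.457) in aged against young hearts. With spermidine, Kat5, an acetyltransferase of the damage response, gave -0.20 (adjusted p = 0.601) and Twist1, a transcription factor that opposes p53, -0.25 (adjusted p = 0.656). The probe used for the p53 relative Trp73 was above background on 0 arrays.

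Among 24 other CDK inhibitor, cyclin D and RB genes, 21 were tested and 0 were called in aged against young or treated against aged hearts. An unadjusted p under 0.05 was met by 3 (14.3%) and 2 (9.52%), against 14.2% and 8.64% of all named genes. Cdk2, the kinase that p21 inhibits, came nearest. It read 8.80, 8.54, 8.64 and 8.76 in young hearts, 8.17, 8.19, 8.30 and 8.29 in aged hearts, and 8.59, 8.44, 8.48 and 8.59 in treated hearts. The aged hearts lay below all young and all treated hearts. The log2 differences were -0.45 ± 0.10 (adjusted p = 0.0624) in aged against young and 0.29 ± 0.10 (adjusted p = 0.461) in treated against aged hearts. The first passed under 7 of 23 alternatives: on the submitters' normalized intensities (adjusted p = 0.0284), with offset 50 (0.0109), with values under 16 set to 16 (0.0185), with the background filter (0.0231), with a trended robust fit (0.0243), with array weights (0.0402) and without aged 4 (0.0438). The Rbl2 probe, for a relative of RB, was above background on 1 array, and that of Ccne1, the cyclin E1 gene, on 0.

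Among the secreted and surface factors of senescent cells, 53 genes were listed. Of these, 46 were tested and 24 were above background on all 12 arrays. In aged against young hearts 2 rose and 0 fell, where 78 rose and 31 fell among all 13708 named genes. The median log2 difference was 0.05, with 26 of 46 higher, against -0.01 and 47.6% over all named genes. An unadjusted p under 0.05 was met by 11 (23.9%), against 14.2% of all. In treated against aged hearts 0 were called, and 8 (17.4%) met that unadjusted rule, against 8.64% of all. The risen genes were Ccl8 and Ccl7, chemokines that draw monocytes. Ccl8 read 4.88, 4.98, 5.49 and 4.95 in young hearts, 7.76, 8.61, 8.18 and 8.48 in aged hearts, and 6.99, 7.49, 7.45 and 8.19 in treated hearts. Both old groups lay above all young hearts and overlapped each other. The young level sat at the background limit, above it on 3 of 4 arrays. The Ccl8 log2 differences were 3.18 ± 0.25 (adjusted p = 0.000128) in aged against young and 2.46 ± 0.25 (adjusted p = 0.000600) in treated against young hearts. Treated against aged, Ccl8 gave -0.73 ± 0.25 with an adjusted p of 0.457. The aged-against-young call of Ccl8 held in all 12 fits that left out 1 array, and its size ran from 2.33 to 3.96 over 23 alternatives.

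Ccl7 was dimmer, at 5.04 to 5.30 in young, 5.77 to 6.19 in aged and 5.38 to 5.91 in treated hearts. Its log2 difference was 0.79 ± 0.14 in aged against young (adjusted p = 0.0255) and -0.35 ± 0.14 in treated against aged hearts (adjusted p = 0.495). Its call held in 7 of the 12 fits that left out 1 array. It was lost without young 1 (adjusted p = 0.0588), young 2 (0.0837), young 3 (0.0807), young 4 (0.0612) or aged 1 (0.0552), and without both arrays with airway transcripts (0.0807). Macrophages are known sources of both chemokines, and all 7 tested macrophage markers had higher means in aged than in young hearts (median log2 difference 0.45, 0 called). Their part in the Ccl8 and Ccl7 differences was not tested. The probe of Il6, the most cited secreted factor, was above background on 0 arrays. Fgf2 gave 0.78 (adjusted p = 0.0541, and 0.0303 without aged 4), but its probe was above background on 1 array.

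Of 20 other senescence marks, 14 were tested and 0 were called. An unadjusted p under 0.05 was met by 3 (21.4%) in aged against young and 2 (14.3%) in treated against aged hearts, against 14.2% and 8.64% of all named genes. Lbr, a nuclear envelope protein that is lost in senescent cells, read 9.28 to 9.56 in young, 8.54 to 9.44 in aged and 8.90 to 9.46 in treated hearts. Its log2 differences were -0.50 ± 0.20 (adjusted p = 0.261) in aged against young and 0.43 ± 0.20 (adjusted p = 0.522) in treated against aged hearts. Without aged 4 the first passed, at -0.69 (adjusted p = 0.0448). Gpnmb, a membrane glycoprotein of macrophages, gave 0.75 ± 0.26 (adjusted p = 0.197) in aged against young hearts. Glb1, the lysosomal enzyme behind the senescence stain, gave -0.12 and 0.23, with adjusted p-values of 0.650 and 0.520. The probe used for Hmgb1, a chromatin protein released by senescent cells, was above background on 1 array.

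Of 24 other FoxO targets, 20 were tested, and 0 rose and 0 fell in aged against young hearts, where 78 rose and 31 fell among all 13708 named genes. In that comparison 7 (35%) were higher and the median log2 difference was -0.05, against 47.6% and -0.01 over all named genes. An unadjusted p under 0.05 was met by 5 (25%), against 14.2% of all. Irs2, an adaptor of insulin signalling, gave -0.70 ± 0.24 (adjusted p = 0.203). Cat, the catalase gene, gave 1.08 ± 0.35 (adjusted p = 0.182; 1.48 and 0.0319 without aged 3), and Gabarapl1, an autophagy gene, 0.36 ± 0.12 (adjusted p = 0.182). With spermidine, 0 of 20 were called, as were 0 of all named genes, and 2 (10%) had an unadjusted p under 0.05, against 8.64% of all. Map1lc3b, which encodes the autophagosome protein LC3, gave 0.41 ± 0.16 (adjusted p = 0.495).

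Clock genes were listed because the hour of collection is not stated. Of 20, 16 were tested. In aged against young hearts 1 fell, Nr1d1, the nuclear receptor REV-ERB alpha, at -0.85 ± 0.18 (adjusted p = 0.0446). That call held in 2 of the 12 fits that left out 1 array (without young 4 or aged 4), and the adjusted p reached 0.148 without young 1. Its relative Nr1d2 gave -0.69 (adjusted p = 0.333) and Dbp, a clock output factor, -0.70 (adjusted p = 0.319). In treated against aged hearts 0 were called, but 11 (68.8%) had an unadjusted p under 0.05, against 8.64% of all named genes. There 12 of 16 were higher, against 52.1% of all, with a median log2 difference of 0.48 against 0.01 over all named genes. There Dbp gave 1.40 ± 0.30 (adjusted p = 0.431) and Ciart, a clock repressor, 1.14 ± 0.25 (adjusted p = 0.431). Without treated 1 both passed, at 1.75 (adjusted p = 0.0164) and 1.44 (adjusted p = 0.0155). The part of the clock genes' differences in the values of Ccng2, Gadd45a or Cdkn1a was not tested.

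**Figure D5:**
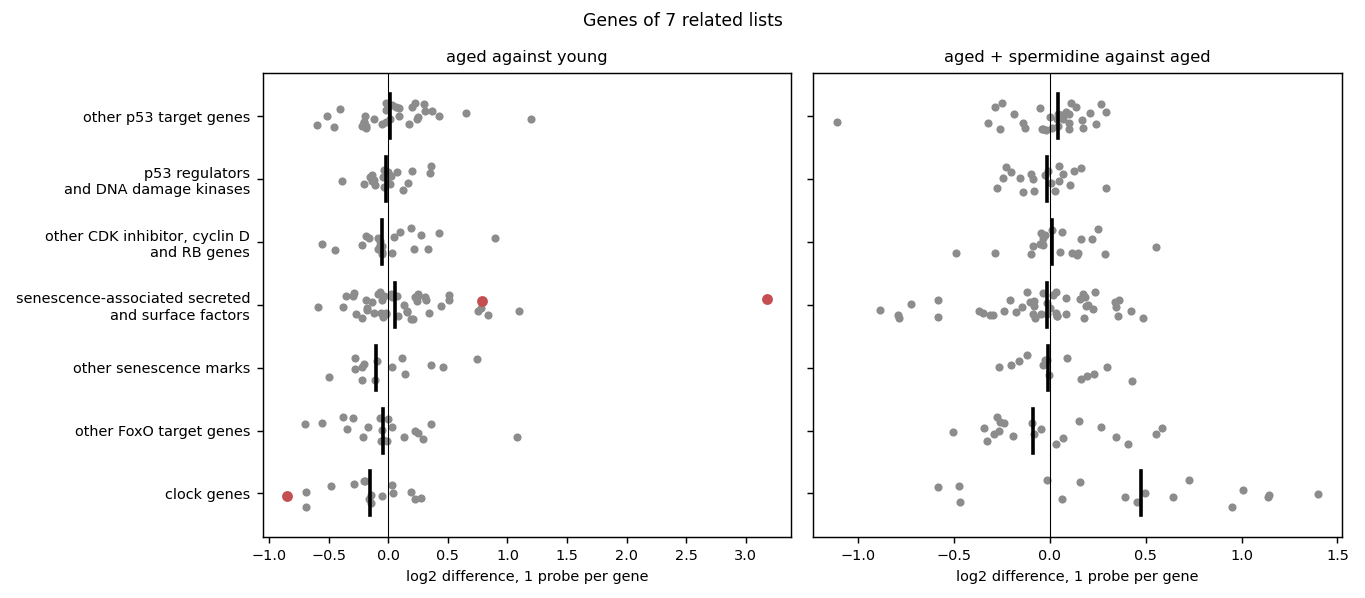
Log2 difference of each tested gene (1 probe per gene) of 7 related lists in aged against young and treated against aged hearts, with the list median as a bar. The filled larger points are the genes past an adjusted p of 0.05: Ccl8 (3.18), Ccl7 (0.79) and Nr1d1 (-0.85), all in the left panel.

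The genes whose levels followed those of Cdkn1a and Ccng2 most closely across the 12 arrays are given as a description, since all points share the group structure and the arrays. The search covered probes above background on at least 8 arrays. For the brightest Cdkn1a probe, among 10941 probes, the highest Pearson r belonged to Ccdc92 (0.87), Jdp2 (0.86) and Brcc3 (0.86), and the lowest to Zfp36l1 (-0.87) and Bace2 (-0.86). After each group was centred on its mean, these became 0.79, 0.77, 0.75, -0.89 and -0.82. For Ccng2, among 10943 probes, the highest belonged to Mrpl55 (0.89), Bex2 (0.89) and Mlf1 (0.89), and the lowest to Gbp10 (-0.93) and Hsd17b11 (-0.92). Centred within groups, these were 0.71, 0.86, 0.75, -0.85 and -0.86.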

How the data were processed

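Transcript levels were measured in 12 mouse hearts on Illumina bead arrays from biotin-labelled RNA made with a TotalPrep amplification kit of Illumina, per the labels. The submitters deposited 2 tables of linear intensity for 25697 probes. The one used for the reported values is non-normalized per its deposited name, but 24.1% of its values lay below 0, so a background had been subtracted from the deposited intensity values. The other deposited table is called normalized, its method is not stated in the sources used here, and it was used as an alternative.

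The planned normexp correction needs detection p-values or control probes, which the tables used here did not hold. Quantile normalization was applied to the deposited intensities, 16 was added, 8 values were raised to a floor of 1, and log2 was taken. A probe was kept if it exceeded the 25th percentile of its array on 4 or more arrays (20573, 80.1%). The background limit of an array was 3 SDs of its values below 0 mirrored about 0. Group means of all 12 arrays were fitted together with limma 3.58.1 in R 4.3.3 (lmFit, eBayes, 9 residual degrees of freedom, two-sided tests), and p-values were adjusted by Benjamini-Hochberg over all kept probes. The number of arrays limits the precision.

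Gene symbols came from the platform annotation, updated through RefSeq by Entrez ID (23962 probes) or accession (9 more), which changed 8 symbols. Of the probes, 23978 had a symbol and 1719 were unnamed here. All probes of the 10 genes were named. From each list, genes past the threshold in any comparison were named, with the 3 of smallest p in aged against young and the 2 of smallest p in treated against aged hearts. The 10 genes and all lists were chosen with earlier results of these data known. Neither slide nor scan date is stated in the sources used here, so batches could not be checked. Replicate numbers showed no clear pairing over all kept probes: deviations of same-numbered arrays correlated at -0.18 to 0.11 over 12 pairs, and 3 exceeded 0.1. Such a check cannot decide on a pairing that touches only some probes. Alternatives covered the scaling, offset, filter, fit, array weights, a replicate block, both arrays with airway transcripts, the mean of a gene's probes and leaving out each array.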

Additional observations from a re-analysis of the deposited data

Results flagged for a closer look

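In 8 of 57 groups of 4 arrays tested (19 probes in 3 groups), 1 array lay far from the other 3, with a gap to its nearest neighbour, as a share of the group's whole range, above Dixon's 95% critical value. For a single group of normally spread values, chance gives this about 1 time in 20. The 57 groups are not independent, since several probes report 1 gene on the same arrays, so the count of 8 is a description. Treated 3 stood above the other treated hearts at 2 Cdkn1a probes, at 9.76 against 8.86 to 8.99 for ILMN_2634083 (gap 0.857 of the range) and at 8.46 against 7.65 to 7.77 for ILMN_2846776 (0.854). Young 4 stood above the other young hearts at Cdkn2c ILMN_1228366, at 8.29 against 7.68 to 7.77 (0.854). Treated 3 and young 4 are the arrays with airway transcripts. At Cdkn2b, near background, aged 4 read 5.35 against 4.97 to 4.99 (0.940), and treated 4 read 4.89 against 5.29 to 5.34 (0.886). At Mdm2 ILMN_2850753, aged 1 read 9.89 against 10.18 to 10.24 (0.841), and treated 1 read 10.25 against 9.93 to 9.98 (0.856). At Ccng1 ILMN_2702233, aged 2 read 10.42 against 9.78 to 9.87 (0.864). No explanation of these values was tested.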

How the results depend on the processing

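Of 1122 alternative values for 48 log2 differences of the 16 measured probes, 1081 kept their direction and side of the threshold, 27 reversed, 13 lost a call and 1 gained one. The 13 were all of Ccng2 in aged against young hearts, 8 of them with 1 array left out. Its adjusted p was 0.0741 with values under 16 set to 16, 0.0628 with no filter, 0.0814 on only the 8 arrays compared, 0.0724 with a replicate block and 0.106 without both arrays with airway transcripts. The count of member probes called was 0 under these 5 settings, and 2 with array weights, where Ccng1 ILMN_2710229 passed (0.73, adjusted p = 0.0489). It was 0 to 1 with each array left out. Array numbers showed no clear pairing over all kept probes.

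Over all probes, aged against young gave 164 calls as reported, 299 on the submitters' normalized intensities, 378 with offset 50, 95 with values under 16 set to 16, 90 with no filter, 331 with the background filter, 97 on 8 arrays, 96 with the replicate block, 337 with a trended robust fit, 372 with array weights, 70 without both airway arrays and 41 to 559 with each array left out. Treated against aged gave 1, and 0 with values set to 16 or the replicate block, and 0 to 49 with each array left out. Treated against young gave 33, with 51 on 8 arrays, 52 with the trended robust fit, 105 with array weights, 12 without both airway arrays and 16 to 48 with each array left out. The replicate block changed no other call of the 16 probes. Among the other named genes, it ended the call of Nr1d1 (adjusted p = 0.0884) and gave one to Fgf2 (0.0304). The cause of these shifts was not tested.

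All reversals were of values not called as reported. In aged against young hearts, Ccng1 ILMN_2500276 gave 0.056 when scaled to bright probes, 0.38 as the mean of the gene's probes and -0.11 to 0.11 with each array left out. Mdm2 ILMN_1250774 gave -0.024 with array weights, -0.010 without both airway arrays and -0.13 to 0.10 with each array left out. Sesn1 ILMN_3059476 gave 0.080 with array weights and -0.29 to 0.20 with each array left out, and Gadd45a ILMN_2947568 -0.14 to 0.042. In treated against aged hearts, Ccng1 ILMN_2500276 gave -0.17 as the mean of probes, Cdkn1a ILMN_2634083 -0.0017 without both airway arrays and up to 0.32 with each array left out, and Sesn1 ILMN_3059476 -0.39 to 0.11. In treated against young hearts, Cdkn2c ILMN_1228366 gave 0.047 with array weights, 0.0051 as the mean of probes and -0.15 to 0.11 with each array left out, Cdkn2c ILMN_1215651 -0.026 to 0.13 and Sesn1 ILMN_3136744 -0.23 to 0.033. Probes removed by the filter of a setting, or at the floor on all its arrays, gave no value there.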
